A study of Mus musculus with 6 samples.

Results

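Kinesins are motor proteins that use ATP to walk along microtubules or to take microtubules apart. Some build and move the mitotic spindle and the midbody, and their messages rise as cells approach division. Others carry vesicles, mitochondria, endosomes and lysosomes through the cytoplasm in all phases of the cell cycle, work that in macrophages serves secretion and the movement of phagosomes and lysosomes. The members described here are the protein-coding mouse genes whose symbol begins with Kif or Kifc followed by a digit. The deposited table lists 40 of them among 24379 genes, out of 43 in the GENCODE M21 annotation, and Kif2b, Kif6 and Kif12 are not analysed here. One of the 40, Kif1bp, codes for a protein that binds kinesins and is itself no motor, which leaves 39 motor genes. Of these, 13 were grouped as mitotic, 15 as transport, 5 as motors of cilia and centrioles, and 6 as other. A filter on low counts passed 36 of the 40, among them 35 motor genes, including all the mitotic and transport genes in the table.

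Messenger RNA was sequenced from RAW264.7 cells, a macrophage-like line grown from a tumour that Abelson virus had raised in a mouse. The labels give 3 libraries of cells given HFCS (high-fructose corn syrup, a glucose and fructose sweetener) and 3 of cells called WT, here the control, all with a time of 18 h. The dose is 140 mM in the titles and 170 mM in the source names, and the sources used here do not give what the control cells received. The labels leave out whether replicates were separate cultures of this single dividing line, so the p-values here cover only variation among the 6 libraries and that variation may be technical.

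Total counts were 13108485 to 15340255 per library, and 3 counts, the floor used here, correspond to 0.196 to 0.229 CPM (counts divided by the library total, in millionths). The CPM values of genes and lists below were further scaled by TMM, edgeR's adjustment between libraries, and the floor was not. All genes of a library then summed to 971131 to 977745 CPM with the HFCS label and 1025618 to 1034966 with the control label. The 6 macrophage markers examined were present in every library, with a summed level of 1587 to 1629 CPM with the HFCS label and 1469 to 1475 CPM with the control label. All 6 passed the test described below, beside 44.9% of all tested genes. Adgre1 (log2 fold change 1.04), Spi1 (0.56), Itgam (0.46) and Lyz2 (0.35) were higher and Csf1r (-0.67) and Cd68 (-0.42) lower. The part of these 6 markers in the kinesin values was not tested. Markers of fibroblasts, epithelium, T cells, B cells, neurons and germ cells summed to at most 1.01 CPM per list in any library. Akr1b3, the aldose reductase gene, known to respond to hypertonic medium with higher expression, had 208 ± 12.01 CPM with the HFCS label and 7435 ± 381 CPM with the control label (SD, n = 3 each), so libraries are named by their labels and every direction below rests on those labels. Control replicate 1 stood apart from its group, with counts that differed from control replicates 2 and 3 by a chi-square over its degrees of freedom of 18.6 and 15.6, against 4.02 between those 2. To a smaller extent, HFCS replicate 3 differed from HFCS replicates 1 and 2 (7.23 and 7.14, against 2.71 between those 2). Mitotic genes whose call changes without control replicate 1 are given with both values. Other values shift as well, and without it 7550 genes passed the test described below, in place of 6447.

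The promoters of the kinesin genes are shown first. Genes of late cell division are known for a pair of elements upstream of their start, the CCAAT box and the cell cycle homology region (CHR). RefSeq windows (GRCm38.p6) were found for 30 of the 40 members, and the 250 bases before each start were searched on both strands for CCAAT, for TTTGAA and for TTCGAA, the last 2 being forms of the CHR. The letters of these motifs do not overlap one another in the windows printed here. CCAAT was found for 8 of 12 mitotic genes (66.7%), for 3 of 10 transport genes and in 33.8% of 32851 windows of all genes. TTTGAA was found for 5 of the 12 mitotic genes (41.7%), for 1 of the 10 transport genes and in 15.99% of all windows. TTCGAA was found in none of these 22 genes and in 1.34% of all windows. Both kinds of element stood before Kif11, Kif14 and Kif22, and in 6.02% of all windows. The RefSeq starts of Kif2c and Kif14 lie 3867 and 1505 bases inside the gene as the deposited table gives it, and among the transport genes that of Kif17 lies 11816 and one of Kif1a 19471 bases inside, so these windows are not upstream of the whole gene. The start of Kif4 lies 328 bases inside.

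The windows below run 5′ to 3′ on the gene's strand over the 120 bases before the start, with motif letters in capitals (ATTGG is CCAAT and TTCAAA is TTTGAA on the other strand). They show a mitotic gene with both elements near its start, as Kif22 also has (Kif11, chr19:37376262-37376381, plus strand), the mitotic pair that fell and rose (Kif18a, chr2:109280618-109280737, plus strand, and Kif18b, chr11:102925125-102925244, minus strand), a pair of cytokinesis motors that fell (Kif20b, chr19:34922238-34922357, plus strand, and Kif23, chr9:61946800-61946919, minus strand), and the transport genes with the lowest and highest fold change (Kif3c, chr12:3365012-3365131, plus strand, and Kif5c, chr2:49619166-49619285, plus strand).
Kif11: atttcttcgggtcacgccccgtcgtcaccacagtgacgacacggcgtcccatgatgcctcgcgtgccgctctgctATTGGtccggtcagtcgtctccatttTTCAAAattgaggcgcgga
Kif18a: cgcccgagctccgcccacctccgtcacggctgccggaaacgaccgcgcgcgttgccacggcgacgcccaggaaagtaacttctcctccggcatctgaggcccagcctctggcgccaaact
Kif18b: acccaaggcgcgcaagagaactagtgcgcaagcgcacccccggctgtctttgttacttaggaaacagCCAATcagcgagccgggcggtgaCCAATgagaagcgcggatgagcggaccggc
Kif20b: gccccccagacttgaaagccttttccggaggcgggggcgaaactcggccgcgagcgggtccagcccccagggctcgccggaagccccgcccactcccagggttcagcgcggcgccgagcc
Kif23: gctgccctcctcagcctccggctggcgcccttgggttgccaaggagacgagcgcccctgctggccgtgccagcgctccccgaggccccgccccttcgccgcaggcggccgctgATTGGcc
Kif3c: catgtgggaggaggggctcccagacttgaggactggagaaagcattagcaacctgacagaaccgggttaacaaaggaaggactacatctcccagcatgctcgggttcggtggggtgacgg
Kif5c: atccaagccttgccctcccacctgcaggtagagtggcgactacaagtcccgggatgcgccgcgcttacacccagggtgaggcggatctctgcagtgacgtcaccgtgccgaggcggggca
Kif18a and Kif20b, the mitotic genes with the lowest and third-lowest fold change, carried neither motif in the whole 250 bases. Of the mitotic genes that carried both, Kif14 and Kif22 fell and Kif11 did not pass the test. A match or its absence describes these letters and says nothing of any factor.

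Kifc1 and Kifc5b need a caution before their values are read. They lie apart on chromosome 17 and share 38.6% of the 50-base stretches of the Kifc1 transcripts, and 98 of 100 bases were identical between the window that ends 29 bases before the Kifc1 start (chr17:33890662-33890761, minus strand) and the one just before the Kifc5b start (chr17:26916991-26917090, plus strand), shown here with CCAAT in capitals.
Kifc1: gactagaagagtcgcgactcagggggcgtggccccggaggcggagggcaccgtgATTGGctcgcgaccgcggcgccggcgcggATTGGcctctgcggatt
Kifc5b: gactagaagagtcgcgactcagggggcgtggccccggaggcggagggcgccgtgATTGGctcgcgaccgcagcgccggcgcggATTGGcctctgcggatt
Reads from the shared stretches could be counted to either gene or to neither, so their separate levels are uncertain.

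The groups were compared with edgeR's quasi-likelihood test over all 14360 genes that passed the filter, with Benjamini-Hochberg adjustment, and a change means an adjusted p under 0.05. Of the 35 motor genes tested, 12 were lower and 6 higher in the HFCS-labelled libraries, together 51.4%, beside 44.9% of all tested genes (22.5% lower and 22.4% higher). Of 13 mitotic genes, 9 (69.2%) fell, Kif18b rose and 3 did not pass, with a median log2 fold change of -0.52. Of 15 transport genes, 5 (33.3%) rose, 2 (13.3%) fell and 8 did not pass, with a median of 0.23, beside -0.00 for all tested genes. The transport median was 0.02 without control replicate 2, 0.07 without HFCS replicate 1 and 0.14 without control replicate 1. The share of transport genes called in either direction, 46.7%, was near the 44.9% of all tested genes. The libraries of the groups did not overlap for 10 of the 13 mitotic and 8 of the 15 transport genes, beside 54.5% of all tested genes. The roles were assigned with earlier results of these data known, so these counts are a description and carry no test.

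**Figure D1:**
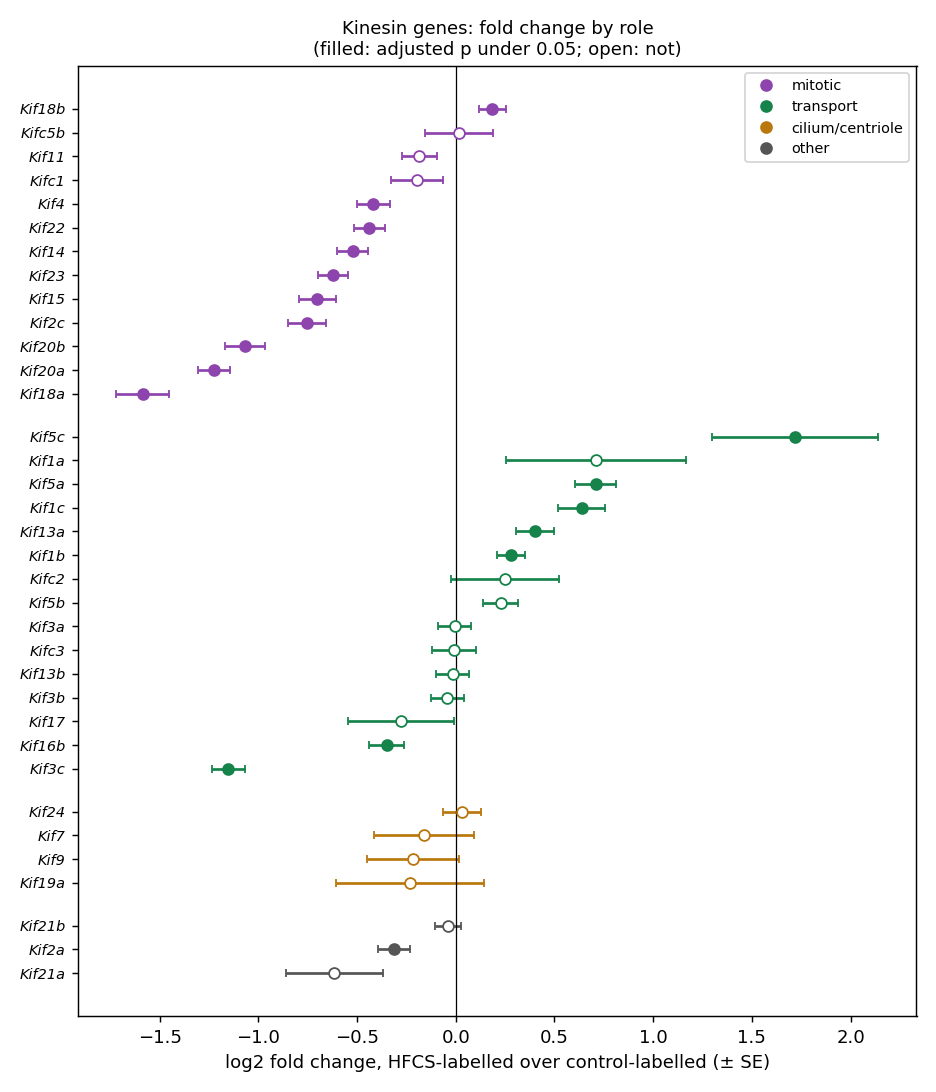
Log2 fold change (horizontal axis, HFCS-labelled over control-labelled libraries, ± SE) of the 35 tested kinesin motor genes, grouped and coloured by role, with filled points for an adjusted p under 0.05 and open points for the rest. The mitotic genes run from -1.58 (Kif18a) to 0.19 (Kif18b) and the transport genes from -1.15 (Kif3c) to 1.72 (Kif5c).

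Kif18a (ENSMUSG00000027115, mm10 chromosome 2, 109280738 to 109341747, plus strand) had the lowest fold change of the family. Its protein is a plus-end motor that damps the oscillation of chromosomes at the metaphase plate. In order of replicate number, its level was 21.8, 28.1 and 30.6 CPM with the HFCS label and 70.4, 92.6 and 79.0 CPM with the control label. Every HFCS-labelled library lay below every control-labelled one (log2 fold change -1.58, SE 0.13, edgeR adjusted p = 8.85e-06). Its close relative Kif18b (chromosome 11, 102905529 to 102925124, minus strand), a motor that acts on the astral microtubules of the spindle, was at 84.2, 87.0 and 87.2 CPM with the HFCS label and 75.4, 72.3 and 79.5 CPM with the control label. Here the groups did not overlap in the other direction, but the difference was small and near the threshold (log2 fold change 0.19 ± 0.07, edgeR adjusted p = 0.0489). Kif18b did not pass in 8 of 15 alternatives, with an adjusted p of 0.0101 to 0.133 over all of them, among them DESeq2 (0.0985) and median-of-ratios scaling (0.0528). The ratio of Kif18a to Kif18b within a library was 0.311 ± 0.0467 with the HFCS label and 1.07 ± 0.186 with the control label.

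The motors of the midzone and of cytokinesis fell by different amounts. Kif20a, which brings the chromosomal passenger complex to the midzone of the anaphase spindle, had 27.9, 26.9 and 29.2 CPM with the HFCS label and 67.1, 67.1 and 62.5 CPM with the control label. The groups lay far apart beside their spread, with a log2 fold change of -1.23 ± 0.08 and an edgeR adjusted p of 1.76e-06. Kif20a overlaps the gene Cdc23 on the other strand over 2315 bases, and Cdc23 summed to 3795 counts in the HFCS group and 3743 in the control group. Kif20b (chromosome 19, 34922361 to 34975745, plus strand), a relative that acts in the completion of cytokinesis, had 73.6, 79.2 and 87.5 CPM against 144.8, 186.6 and 173.1 CPM, with no overlap of the groups. Its log2 fold change was -1.07 ± 0.10 (edgeR adjusted p = 1.84e-05).

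Kif23 (chromosome 9, 61915905 to 61946774, minus strand) codes for the motor subunit of centralspindlin, the complex that bundles midzone microtubules and recruits the cytokinesis machinery. It had the highest level per kilobase of any kinesin in the control-labelled libraries. Its level was 211, 206 and 222 CPM with the HFCS label and 297, 339 and 348 CPM with the control label. The groups did not overlap, and the log2 fold change was -0.62 ± 0.07 (edgeR adjusted p = 8.94e-05). Kif14, which holds the citron kinase at the midbody, fell from 137, 148 and 138 CPM in the control-labelled to 92.8, 93.3 and 108 CPM in the HFCS-labelled libraries (log2 fold change -0.52 ± 0.08, edgeR adjusted p = 3.77e-04). Within a library, the ratio of Kif20a to Kif23 was 0.132 ± 8.65e-04 with the HFCS label and 0.201 ± 0.0230 with the control label.

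Motors of spindle assembly and of chromosome arms came next. Kif15, which helps to hold the spindle poles apart, had 141, 146 and 160 CPM with the HFCS label and 215, 276 and 236 CPM with the control label (log2 fold change -0.70 ± 0.09, edgeR adjusted p = 1.67e-04). Kif2c, the kinetochore depolymerase that frees wrongly attached microtubules, had 32.6, 31.6 and 39.8 CPM against 58.4, 57.8 and 59.2 CPM (-0.75 ± 0.10, edgeR adjusted p = 1.51e-04). Both genes were lower in every HFCS-labelled library than in any control-labelled one. The chromokinesins bind chromosome arms and push them towards the spindle equator. Kif22 had 58.8, 59.9 and 63.9 CPM against 88.6, 82.4 and 76.4 CPM (-0.44 ± 0.08, edgeR adjusted p = 0.00118), and Kif4 had 49.0, 48.5 and 51.8 CPM against 60.8, 66.0 and 72.6 CPM (-0.42 ± 0.08, edgeR adjusted p = 0.00247). The groups were apart for these as well, at smaller fold changes. Kif4 overlaps Pdzd11 on the other strand over 832 bases.

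The main motor of spindle bipolarity did not pass the test. Kif11 (chromosome 19, 37376403 to 37421859, plus strand), the tetramer that slides antiparallel spindle microtubules apart, had 143, 150 and 170 CPM with the HFCS label and 157, 180 and 190 CPM with the control label. The groups overlapped, and the log2 fold change was -0.18 ± 0.09 (edgeR adjusted p = 0.119). Without control replicate 1 it was -0.25 and passed (edgeR adjusted p = 0.00816). The ratio of Kif18a to Kif11 within a library was 0.173 ± 0.0176 with the HFCS label and 0.460 ± 0.0504 with the control label.

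Kifc1, the minus-end motor that focuses spindle poles, and its near copy Kifc5b did not pass either. Kifc1 had 82.1, 84.4 and 76.2 CPM with the HFCS label and 117, 81.8 and 79.3 CPM with the control label, and Kifc5b 72.9, 74.2 and 62.1 CPM against 93.4, 57.7 and 55.6 CPM. In both genes control replicate 1 was the highest library and control replicates 2 and 3 lay close together. With all libraries, log2 fold changes were -0.20 ± 0.13 for Kifc1 (edgeR adjusted p = 0.251) and 0.02 ± 0.17 for Kifc5b (0.947). Without control replicate 1 they were 0.01 (0.932) and 0.30 (0.00845), so the call of Kifc5b rests on that library. Counted as a single gene, with all libraries, the pair had a log2 fold change of -0.10 and an edgeR adjusted p of 0.608.

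**Figure D2:**
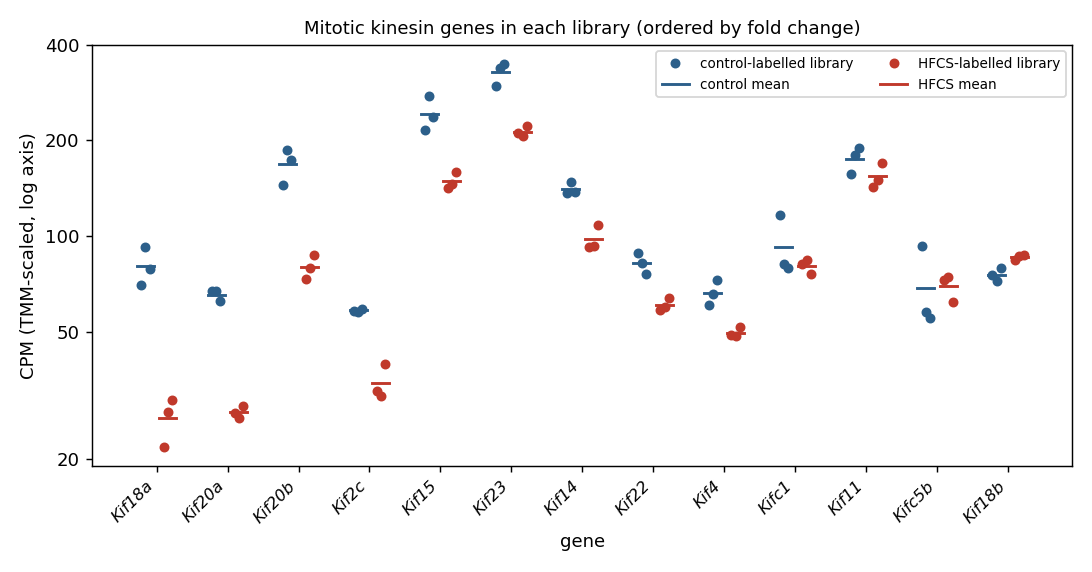
Level of the 13 mitotic kinesin genes in each library (vertical axis, CPM on a log scale; dots are libraries, bars the mean of 3), with genes ordered by fold change from left to right. The 3 libraries of each group stand apart for the 9 genes at the left, from Kif18a to Kif4, and for Kif18b at the right, while Kifc1 and Kifc5b show control replicate 1 above the other control libraries.

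Transport motors were led in level by Kif5b, the widely expressed heavy chain of conventional kinesin, which carries mitochondria, lysosomes and secretory vesicles. It had 254, 252 and 287 CPM with the HFCS label and 198, 240 and 240 CPM with the control label. The groups did not overlap, but the log2 fold change of 0.23 ± 0.09 did not pass (edgeR adjusted p = 0.0584). Kif5b passed with library-size scaling (0.0161) and with all genes kept whatever their counts (0.0177). The other heavy chains are known as neuronal forms. Kif5a (chromosome 10, 127225696 to 127263348, minus strand) rose from 27.4, 24.4 and 21.6 CPM in the control-labelled to 41.2, 40.3 and 38.7 CPM in the HFCS-labelled libraries (log2 fold change 0.71 ± 0.10, edgeR adjusted p = 3.19e-04). Kif5c (chromosome 2, 49619298 to 49774778, plus strand) was counted 34, 29 and 31 times with the HFCS label and 12, 3 and 12 times with the control label, so its log2 fold change of 1.72 ± 0.42 (edgeR adjusted p = 0.00692) rests on few reads. Both rose with no overlap of the groups. Per kilobase of exon, Kif5b still made up 84.6 ± 1.35% of the 3 heavy chains with the HFCS label and 88.6 ± 2.30% with the control label, and Kif5a 14.7 ± 1.24% and 11.1 ± 2.23%.

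The kinesin-3 genes, whose products carry vesicles and endosomes, moved both ways. Kif1c (chromosome 11, 70700548 to 70731964, plus strand), a carrier of secretory vesicles and integrins that also acts at the podosomes of macrophages, had 168, 167 and 138 CPM with the HFCS label and 121, 88.8 and 94.1 CPM with the control label. The groups were apart although control replicate 1 was the highest of its group, and the log2 fold change was 0.64 ± 0.12 (edgeR adjusted p = 0.00143). Kif1b, a carrier of mitochondria and lysosomes, had 158, 152 and 149 CPM against 116, 135 and 127 CPM (0.28 ± 0.07, edgeR adjusted p = 0.00971). Kif13a, which sends recycling endosomes to the cell periphery, had 24.4, 23.2 and 23.9 CPM against 18.2, 17.7 and 18.3 CPM (0.40 ± 0.10, edgeR adjusted p = 0.00681). These 3 genes rose with no overlap of the groups. Kif16b, which carries early endosomes, fell from 52.0, 49.5 and 55.6 CPM in the control-labelled to 44.9, 40.6 and 37.9 CPM in the HFCS-labelled libraries (-0.35 ± 0.09, edgeR adjusted p = 0.00937). Without HFCS replicate 3 Kif16b did not pass (0.0531). Kif13b had 52.5 ± 0.782 against 53.1 ± 4.26 CPM and Kif1a 1.10 ± 0.466 against 0.660 ± 0.270 CPM, and neither passed.

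Kif3c (ENSMUSG00000020668, chromosome 12, 3365132 to 3406494, plus strand) was the exception among the transport genes by the size of its fall. The Kif3 form of kinesin-2 is a motor made of Kif3a and either Kif3b or Kif3c, bound to the accessory protein Kifap3. Kif3c had 23.0, 23.8 and 21.9 CPM with the HFCS label and 52.8, 49.4 and 50.5 CPM with the control label. The groups were far apart, with a log2 fold change of -1.15 ± 0.09 and an edgeR adjusted p of 3.86e-06. Its partners Kif3a and Kifap3 and the alternative subunit Kif3b did not pass the test. Kif3a had 33.7 ± 0.806 against 33.8 ± 0.859 CPM and Kif3b 49.6 ± 3.71 against 51.0 ± 0.852 CPM, with overlapping groups. Kifap3 was at 42.4 ± 1.03 against 47.3 ± 1.76 CPM, where the groups did not overlap (log2 fold change -0.16, edgeR adjusted p = 0.124). Per kilobase of exon, Kif3c made up 26.0 ± 1.35% of the sum of Kif3b and Kif3c with the HFCS label and 43.1 ± 1.03% with the control label. An antisense gene, 1110002L01Rik, overlaps Kif3c over 2617 bases and summed to 689 counts in the HFCS group and 995 in the control group, beside 1020 and 2149 for Kif3c. The sources used here do not give whether reads were assigned by strand, so the 2 genes' reads cannot be told apart there. The same holds where Kif20a overlaps Cdc23 and Kif4 overlaps Pdzd11.

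The remaining transport genes did not pass and their groups overlapped. The minus-end motor gene Kifc3 had 31.7 ± 3.79 CPM with the HFCS label and 31.8 ± 2.90 CPM with the control label. Its relative Kifc2 had 5.77 ± 1.31 against 4.82 ± 1.84 CPM, and Kif17, a motor of dendrites and cilia, 2.32 ± 0.350 against 2.83 ± 0.714 CPM.

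**Figure D3:**
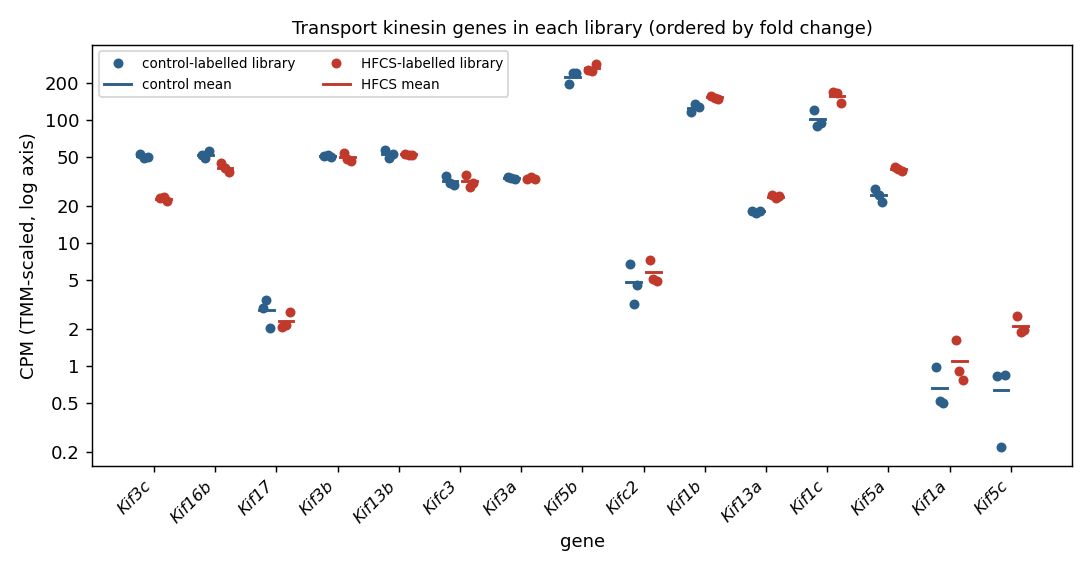
Level of the 15 transport kinesin genes in each library (vertical axis, CPM on a log scale; dots are libraries, bars the mean of 3), ordered by fold change. Kif3c at the left stands lower in all HFCS-labelled libraries (21.9 to 23.8 CPM) than in the control-labelled ones (49.4 to 52.8 CPM), and Kif5c at the right is higher but near the bottom of the scale.

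Of the 4 tested motors of cilia and centrioles, 0 passed edgeR's test, 0 had an unadjusted p under 0.05, and 0 passed with DESeq2 or limma-voom. Kif24, a depolymerase of the mother centriole that restrains cilium growth, had 34.7 ± 2.09 CPM with the HFCS label and 34.0 ± 3.04 CPM with the control label. Kif7, of the Hedgehog pathway, Kif9 and Kif19a had means of 1.40 to 4.89 CPM, and Kif27 was counted 3 and 9 times over the libraries of each group. Among the other motors, Kif2a, a depolymerase used both in neurons and at spindle poles, fell from 77.0, 89.9 and 80.8 CPM in the control-labelled to 63.0, 66.8 and 69.6 CPM in the HFCS-labelled libraries (log2 fold change -0.31 ± 0.08, edgeR adjusted p = 0.00937). Without HFCS replicate 1 Kif2a did not pass (0.0641). Kif2a overlaps Dimt1 on the other strand over 1229 bases, and Dimt1 summed to 1081 counts in the HFCS group and 1296 in the control group. As with Kif3c, the reads of these genes cannot be told apart there. Kif21b, a motor that limits microtubule growth and is known from neurons and immune cells, was the most counted kinesin of the table after Kif23 in the control-labelled libraries and had 311 ± 12.02 against 319 ± 17.3 CPM. Its relative Kif21a was low, at 2.39 ± 0.481 against 3.68 ± 0.621 CPM, with an edgeR adjusted p of 0.0641. Kif26a and Kif26b were each counted 2 times, both in HFCS replicate 2, and Kif28 3 times over the control-labelled libraries, so all 3 were at or under the floor. Kif1bp, the binding protein, did not pass (log2 fold change 0.19 ± 0.12, edgeR adjusted p = 0.221).

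Levels of different genes were compared per kilobase of exon. In the control-labelled libraries the order ran from Kif23 (41.5 ± 3.40 CPM per kilobase) through Kif5b (28.3 ± 3.03), Kifc1 (27.1 ± 6.09), Kif21b (26.2 ± 1.42), Kif20b (24.2 ± 3.07), Kif11 (23.5 ± 2.23) and Kif15 (21.99 ± 2.79). Kif23 stood above Kif5b by more than either SD, while from Kif5b to Kif15 each gene differed from the next by less than the larger of their SDs. In the HFCS-labelled libraries Kif5b came first, at 33.2 ± 2.47 CPM per kilobase, ahead of Kif23 at 27.0 ± 1.02, Kif21b at 25.5 ± 0.986 and Kif18b at 24.1 ± 0.472. The mitotic genes summed to 1091 to 1188 CPM with the HFCS label and 1582 to 1706 CPM with the control label, and the transport genes to 870 to 903 CPM and 775 to 780 CPM. The ratio of the sums was 1.21, 1.28 and 1.37 with the HFCS label and 2.04, 2.19 and 2.11 with the control label. Fewer dividing cells and less of these messages per dividing cell cannot be told apart in such bulk samples.

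**Figure D4:**
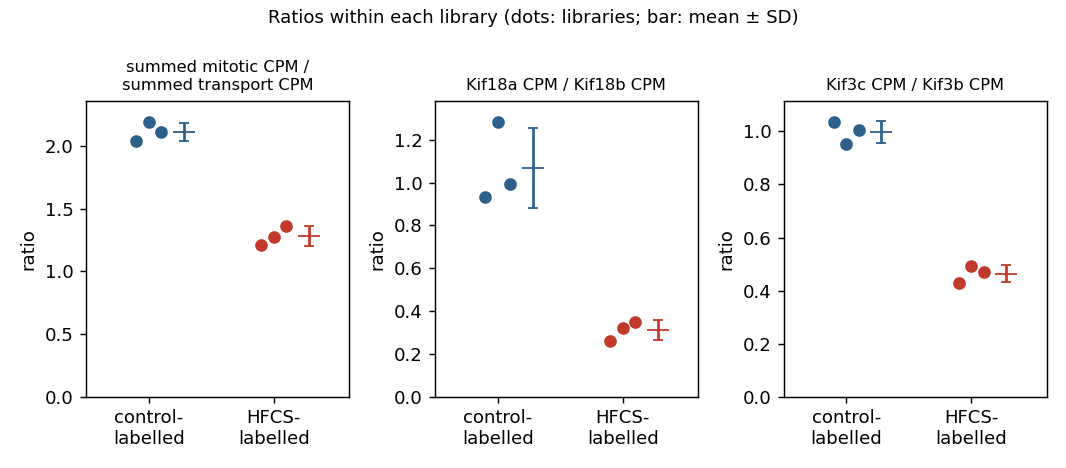
Ratios of CPM values within each library (vertical axes, linear from 0; dots are libraries, bars the mean ± SD of 3) for summed mitotic over summed transport kinesins, Kif18a over Kif18b, and Kif3c over Kif3b. In all 3 panels every HFCS-labelled library lies below every control-labelled one, as with mitotic over transport at 1.21 to 1.37 against 2.04 to 2.19.

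Genes for proteins that work with the mitotic kinesins were mostly lower. Of 13 such genes, 12 (92.3%, beside 22.5% of all tested genes) fell and the other, the citron kinase gene Cit (-0.16, edgeR adjusted p = 0.0617), did not pass, with a median log2 fold change of -0.53. Tpx2, which brings Kif15 and the Aurora A kinase to spindle microtubules, had 132 ± 3.69 CPM with the HFCS label and 236 ± 8.04 CPM with the control label (log2 fold change -0.84). Aurka, the Aurora A gene, fell by 0.89, Prc1, the midzone bundler that Kif4 and Kif20a bind, by 0.62 and Plk1, the polo-like kinase, by 0.74 on the log2 scale. Of 12 proliferation markers, 11 (91.7%, beside 22.5% of all tested genes) fell, with a median of -0.52, and Ccnb1 (-1.04), Ccnf (-0.995), Ccnb2 (-0.94) and Cdc20 (-0.94), genes of late cell cycle, had the smallest adjusted p. The replication gene Mcm5 (-0.02) did not pass, while the replication genes Pcna and Mcm2 fell, by less than those genes of late cell cycle. Kif18a was 0.0380 ± 0.00491 of the level of the proliferation gene Mki67 with the HFCS label and 0.0810 ± 0.00701 with the control label, whereas Kif23 was 0.303 ± 0.0103 and 0.330 ± 0.00604 of it. The summed proliferation markers stood at 2441 to 2635 CPM and 3269 to 3687 CPM, and the part of a changed share of cycling cells in the kinesin values was not tested.

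Regulators that switch mitotic genes on and off moved both ways. Of 17 genes of the E2F, DREAM and MuvB group, 7 (41.2%) rose, 3 (17.6%) fell and 7 did not pass, beside 22.4% higher and 22.5% lower of all tested genes, with a median log2 fold change of 0.07. E2f4 rose from 73.8 ± 1.74 to 118 ± 5.31 CPM (log2 fold change 0.68), and E2f3 (0.49), Rbl1 (0.40) and E2f7 (0.52) rose as well. Tfdp2 (-0.59), Lin52 (-0.53) and Foxm1 (-0.26) fell. The part of these regulators in the kinesin values was not tested. Foxm1 did not pass with library-size scaling (edgeR adjusted p = 0.0557), without HFCS replicate 1 (0.0601) or without HFCS replicate 2 (0.0643).

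Adaptors and light chains of the transport motors moved both ways. Of 16 tested, 5 rose, 2 fell and 9 did not pass, with a median log2 fold change of 0.12. The share called, 43.8%, was near the 44.9% of all tested genes. Klc2, a light chain that links conventional kinesin to cargo, had 79.5 ± 4.67 against 44.1 ± 11.4 CPM (log2 fold change 0.85) while Klc1, its relative, was lower (-0.31, edgeR adjusted p = 0.0213). Klc1 did not pass with library-size scaling (0.0684), without HFCS replicate 1 (0.0558) or without HFCS replicate 3 (0.106). The small GTPases that couple lysosomes to kinesins moved in opposite directions, with Arl8a at 145 ± 9.96 against 79.7 ± 13.9 CPM (0.86) and Arl8b at 221 ± 6.14 against 318 ± 26.1 CPM (-0.53). The mitochondrial adaptor genes Trak2 (0.47) and Trak1 (0.27) rose, Trak1 not without control replicate 3 (edgeR adjusted p = 0.0561).

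**Figure D5:**
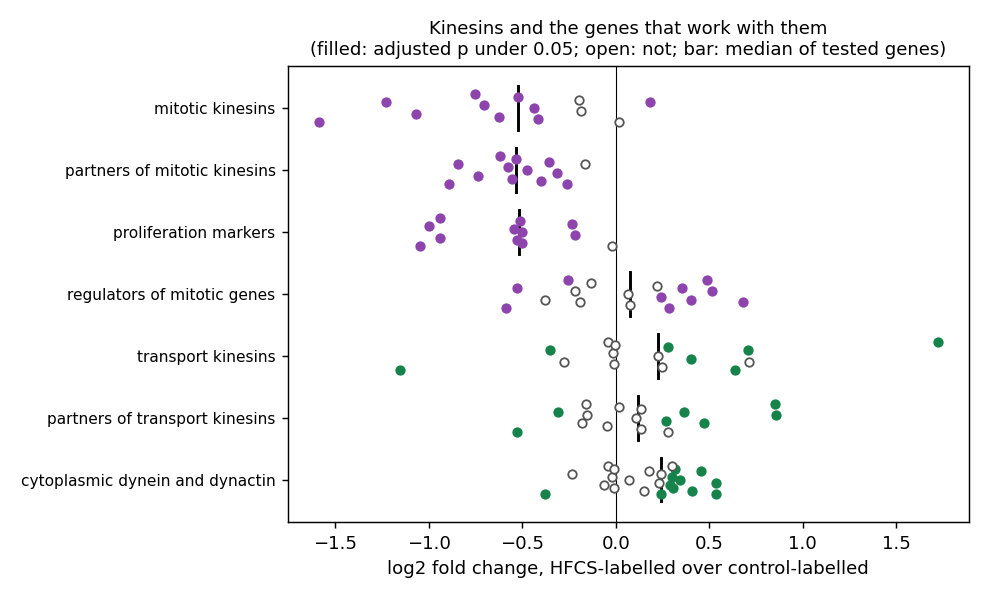
Log2 fold change (horizontal axis, HFCS-labelled over control-labelled) of each tested gene in 7 lists, with filled points for an adjusted p under 0.05, open points for the rest and a bar at the median of the tested genes. The mitotic kinesins (-0.52), their partners (-0.53) and the proliferation markers (-0.52) have medians below 0, while the regulators of mitotic genes (0.07), transport kinesins (0.23), their partners (0.12) and dynein genes (0.24) have medians above it.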

How the data were processed

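The authors deposited counts of reads for each gene in 6 libraries, as whole numbers without normalization. featureCounts 1.5.0-p3, HISAT2 2.0.5, CASAVA and the build mm10 are named per the submitters' processing notes, while annotation release, strand setting and filters were not stated there. Groups were taken from the sample titles. Symbols, biotypes and union exon lengths came from GENCODE M21, which held 24369 of 24379 genes, and 19 of the 40 members overlap another listed gene. Genes were filtered with edgeR's filterByExpr (minimum count 10), which removed 10019, and scaled by TMM. They were tested with glmQLFit and glmQLFTest in edgeR 4.0.16 (R 4.3.3), with no covariate. Each SE was derived from the fold change and its F statistic. Counts set the precision, and without molecular identifiers reads need not be independent molecules. On simulated data for this comparison (14360 genes, 13953 tested), 54% of genes changed 1.5-fold and 74% of those changed 2-fold were recovered, and 7.78% of 167 calls were false. Far fewer genes were changed in the simulation than the 6447 that passed in the real data. The adjusted threshold depends on that share, so these rates need not hold for the real comparison.

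The members, their roles and all lists were chosen with earlier results of these data known, so no list was tested. By the naming rule, values are given for tested mitotic genes, transport and other motors past the threshold and the most abundant transport motor, and for up to 4 genes a direction in each other list; members that did not pass are given as means. Motif searches used RefSeq promoter windows (GRCm38.p6). Alternatives were other scalings, other filters, DESeq2 1.42.0, limma-voom (limma 3.58.1), a replicate block and each library left out, and, chosen after seeing the data, Kifc1 and Kifc5b summed.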

Additional observations from a re-analysis of the deposited data

How the results depend on the processing

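Under the 15 alternatives the count of mitotic kinesins that fell was 9 or 10, and that of transport kinesins that rose 5 or 6. Kif18b, the mitotic gene that rose, was not called with median-of-ratios scaling, upper-quartile scaling or DESeq2, where the count of mitotic genes higher was 0, and leaving out a library gave 0 to 2. The mitotic median was -0.44 with library-size scaling and -0.58 to -0.47 with a library left out, and the transport median 0.024 to 0.27. With a library left out, 1 or 2 transport genes fell. Kifc5b was at -0.014 with upper-quartile scaling. With a library left out Kifc5b was at -0.11 to 0.30, and Kifc1 at -0.29 to 0.0083. The cause of these shifts was not tested. Library-size scaling called 3975 genes higher and 2624 lower. Whether the replicate numbers pair the libraries cannot be settled from so few libraries. Same-numbered libraries' deviations correlated at 0.17, -0.06 and 0.19. HFCS replicates 1 and 3 correlated best with the control of the same number, and HFCS replicate 2 with control replicate 1 (0.16). With the number as a block, 20 kinesin genes passed in place of 18, the added ones being Kif11 (adjusted p = 0.0294) and Kif5b (0.0121). At these depths Kif5c, Kif1a, Kif17 and Kif19a rest on few counts.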

Other observations

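Cytoplasmic dynein is the motor that walks against most kinesins, towards the minus ends of microtubules, with the help of dynactin. Of 23 tested genes of dynein, dynactin and their adaptors, 10 (43.5%) rose, 1 (4.35%) fell and 12 did not pass, beside 22.4% higher and 22.5% lower of all tested genes, with a median log2 fold change of 0.24. The dynein regulator gene Pafah1b1 had 246 ± 16.5 CPM in the HFCS-labelled and 169 ± 12.8 CPM in the control-labelled libraries (0.54, edgeR adjusted p = 2.89e-04), and the dynactin gene Dctn1 157 ± 11.3 against 108 ± 8.28 CPM (0.53, edgeR adjusted p = 3.86e-04). The light intermediate chain genes moved in opposite directions, Dync1li1 at -0.38 (edgeR adjusted p = 5.04e-04) and Dync1li2 at 0.31 (0.00457). The list's summed level was 2941 to 3032 CPM against 2632 to 2674 CPM.

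A pair of kinesins carry names outside the Kif series. Cenpe, the kinetochore motor that moves chromosomes to the spindle equator, had 138, 144 and 152 CPM with the HFCS label and 185, 226 and 226 CPM with the control label (log2 fold change -0.55 ± 0.09, edgeR adjusted p = 4.66e-04). Stard9, a motor of the centrosome's surrounding material, had 103, 111 and 106 CPM against 224, 252 and 224 CPM (-1.13 ± 0.07, edgeR adjusted p = 1.44e-06). Both fell with no overlap of the groups.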
